A study of Mus musculus with 3 samples.

Results

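The mouse genome carries 39 Hox genes of clusters HoxA, HoxB, HoxC and HoxD. They were picked out of a count table of 44788 gene symbols as the rows whose symbol is Hox, a cluster letter and a number, and all 39 were present. The table came from bulk RNA-seq of primary chondrocytes, the matrix-making cells of cartilage, from the knee joints of C57BL/6 mice. The cKO group was 2 libraries of cells with Col2a1-CreERT2 and floxed Kdm6b alleles, written Col2a1-CreERT2;Kdm6bf/f. The control group was 1 library of cells with the floxed alleles alone, written Kdm6bf/f. Cells of both groups were grown in F12 medium with 10% fetal bovine serum and received 1 µM 4-hydroxytamoxifen for 48 h. The drug activates the CreERT2 recombinase, which the Col2a1 promoter directs to chondrocytes, so a cell that does not use this promoter would keep its floxed alleles. The comparison asked how transcripts differ in chondrocytes directed to lose Kdm6b, which encodes a demethylase of lysine 27 on histone H3.

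Hox genes encode homeodomain transcription factors that give cells their position along the body axis and the limb. Within a cluster they lie in the order in which they are used, from low-numbered paralogs for the hindbrain and neck to high-numbered paralogs for the lumbar, sacral and tail regions. In the mouse limb, group 9 and 10 genes act in the upper segment, group 11 genes in the middle segment and group 13 genes in the paw, and the knee lies where the upper and middle segments meet. Inactive Hox genes are covered by methyl groups on lysine 27 of histone H3, the mark that Polycomb complexes place and Kdm6b and Kdm6a remove.

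Library totals lay between 12489738 and 12636471 counts. Kdm6b had 1049 and 948 counts in the cKO libraries, against 1289 in the control. The difference, -0.39 ± 0.13 (SE) on the log2 scale, did not pass an adjusted p of 0.05 in edgeR (0.102). Which exons are floxed is not given in the sources used here, so these counts over the whole gene check the genotype labels only weakly. Of 12 tested cartilage markers, 11 passed in edgeR and were lower in cKO, against 2.01% of all genes tested. In DESeq2 8 passed, against 2.11% of genes. The summed level of the 12 markers was 18215 and 16815 CPM (counts scaled by library size) in the cKO libraries, against 30481 CPM in the control. Xist had 10081 counts in cKO replicate 2, against 2 in cKO replicate 1 and 1 in the control, and 4 genes of the Y chromosome had no count in cKO replicate 2 but had them in the other libraries, so the cKO pair is not matched for sex-linked transcripts. Of 11 leukocyte markers 6 had no count in any library, and the summed level was 12.6 and 12.97 CPM in the cKO pair and 7.82 CPM in the control. Of the 4 tested, 0 passed in edgeR, and 2 had an unadjusted p under 0.05 (50%, against 15.5% of all genes tested). These were Csf1r, with 33 and 28 counts in the cKO pair and 8 in the control, and Cd68, with 59 and 57 against 32. Of 7 endothelial markers 3 had no count, among them the defining gene Cdh5, with sums of 3.21 and 2.50 CPM in the cKO pair and 0.806 CPM in the control. Of the 2 tested, 1 had an unadjusted p under 0.05 in edgeR (50%, against 15.5%). This was Vwf, with 24 and 27 counts in the cKO pair and 7 in the control (adjusted p = 0.133 in edgeR). The other, Tek, had 11 and 3 counts in the cKO pair and 3 in the control, and the groups overlapped in CPM. Of 6 tested mural and muscle markers, 0 passed in edgeR and 1 had an unadjusted p under 0.05 (16.7%, against 15.5%). That list summed to 497 and 652 CPM in the cKO pair and 535 CPM in the control. Of 10 tested tendon, synovium and fibroblast markers, 1 rose in edgeR. This was Thy1, with 623 and 259 counts in the cKO libraries, against 139 in the control (log2 1.65 ± 0.33 SE, adjusted p = 0.0020 in edgeR). Thy1 did not pass in DESeq2 (adjusted p = 0.9999), while it passed in limma-voom (adjusted p = 0.0100). Taken alone, cKO replicate 1 lay 2.16 above the control and cKO replicate 2 lay 0.85 above it on the log2 scale. The list summed to 13097 and 11704 CPM in the cKO libraries, against 13003 CPM in the control. Of 4 tested osteoblast markers, 1 fell in edgeR, against 2.01% of all genes tested. This was Ibsp, with 120 and 156 counts in the cKO libraries, against 239 in the control (log2 -0.82 ± 0.22 SE, adjusted p = 0.0314 in edgeR). Ibsp did not pass in DESeq2 (adjusted p = 0.674). The osteoblast list summed to 51.4 and 53.1 CPM in the cKO libraries, against 63.9 CPM in the control. The part of these markers in the values below was not tested. In bulk RNA, fewer cells of a type and less RNA per cell cannot be told apart.

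Hoxc10, the highest Hox gene, had no start region among the sequences used. The 4 start regions shown are from HoxA, which held other genes with many reads, and HoxB, which held silent ones. Each runs from 250 bases before to 50 bases after the start (RefSeq sequences, GRCm38.p6). CG dinucleotides, the sites of DNA methylation that are dense in many regulated promoters, are in capitals. Hoxa10 and Hoxa11 were among the highest Hox genes, and Hoxb4 and Hoxb8 had at most 1 count in any library.
Hoxa10, chr6:52240805-52241104, minus strand: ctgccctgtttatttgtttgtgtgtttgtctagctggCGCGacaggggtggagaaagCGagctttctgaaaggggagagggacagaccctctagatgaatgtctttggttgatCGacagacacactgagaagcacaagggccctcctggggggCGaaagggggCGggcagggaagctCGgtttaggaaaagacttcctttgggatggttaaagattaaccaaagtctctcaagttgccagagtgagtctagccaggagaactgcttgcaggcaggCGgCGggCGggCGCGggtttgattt
Hoxa11, chr6:52245761-52246060, minus strand: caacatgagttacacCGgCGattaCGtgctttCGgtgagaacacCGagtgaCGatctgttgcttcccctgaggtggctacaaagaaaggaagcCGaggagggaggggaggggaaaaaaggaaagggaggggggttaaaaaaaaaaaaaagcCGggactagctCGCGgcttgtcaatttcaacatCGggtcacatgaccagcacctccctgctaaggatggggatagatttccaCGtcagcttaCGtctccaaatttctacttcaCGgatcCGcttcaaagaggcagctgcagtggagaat
Hoxb4, chr11:96318017-96318316, plus strand: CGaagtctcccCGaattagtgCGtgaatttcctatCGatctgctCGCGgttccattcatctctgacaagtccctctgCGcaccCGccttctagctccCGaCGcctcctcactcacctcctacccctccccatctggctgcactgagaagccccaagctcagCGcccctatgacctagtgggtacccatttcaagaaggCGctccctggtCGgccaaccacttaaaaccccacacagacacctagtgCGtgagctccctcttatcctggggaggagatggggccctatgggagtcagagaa
Hoxb8, chr11:96281655-96281954, plus strand: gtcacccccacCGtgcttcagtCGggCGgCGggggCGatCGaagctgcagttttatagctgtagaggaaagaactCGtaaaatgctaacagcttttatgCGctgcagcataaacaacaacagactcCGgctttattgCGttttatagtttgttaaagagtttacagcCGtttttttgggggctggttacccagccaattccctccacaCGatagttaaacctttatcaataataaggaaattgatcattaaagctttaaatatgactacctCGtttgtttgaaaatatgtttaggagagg
The expressed pair held 12 CG dinucleotides at Hoxa10 and 15 at Hoxa11, and the silent pair held 14 at Hoxb4 and 13 at Hoxb8. The CG counts of the expressed and the silent windows shown thus overlapped. These are 4 of the 24 Hox windows, and a relation of CG density to expression was not tested. The 24 windows found for 22 Hox genes had a median of 14.5 CG dinucleotides and ranged from 4 to 45, against a median of 7 over 32851 windows of the same length. A second start of Hoxa10, inside the gene (chr6:52234890-52235189), held 21, more than either silent window shown. The letters TATAAA, searched on both strands, occurred in 4 of the 24 Hox windows, against 13.6% of all windows, and Hoxb8 and the inner Hoxa10 start were among the 4.

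Levels of different genes were compared as CPM per kilobase of annotated exon (CPM per kb), so that a long gene does not count for more. Of the 39 Hox genes, 31 had at least 1 count and 8 had none in any library. Summed over all 39, the level was 153 and 156 CPM per kb in the cKO libraries, against 164 in the control. HoxA held 47.0% and 46.7% of this sum in the cKO pair and 50.3% in the control, HoxC held 45.4% and 43.4% against 41.5%, and HoxD held 7.43% and 9.70% against 8.01%. HoxB held 0.116% and 0.203% in the cKO pair and 0.148% in the control. The 3 highest genes, Hoxc10, Hoxa10 and Hoxa11, made up 57.5% and 56.6% of the Hox sum in the cKO pair and 60.3% in the control.

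**Figure D1:**
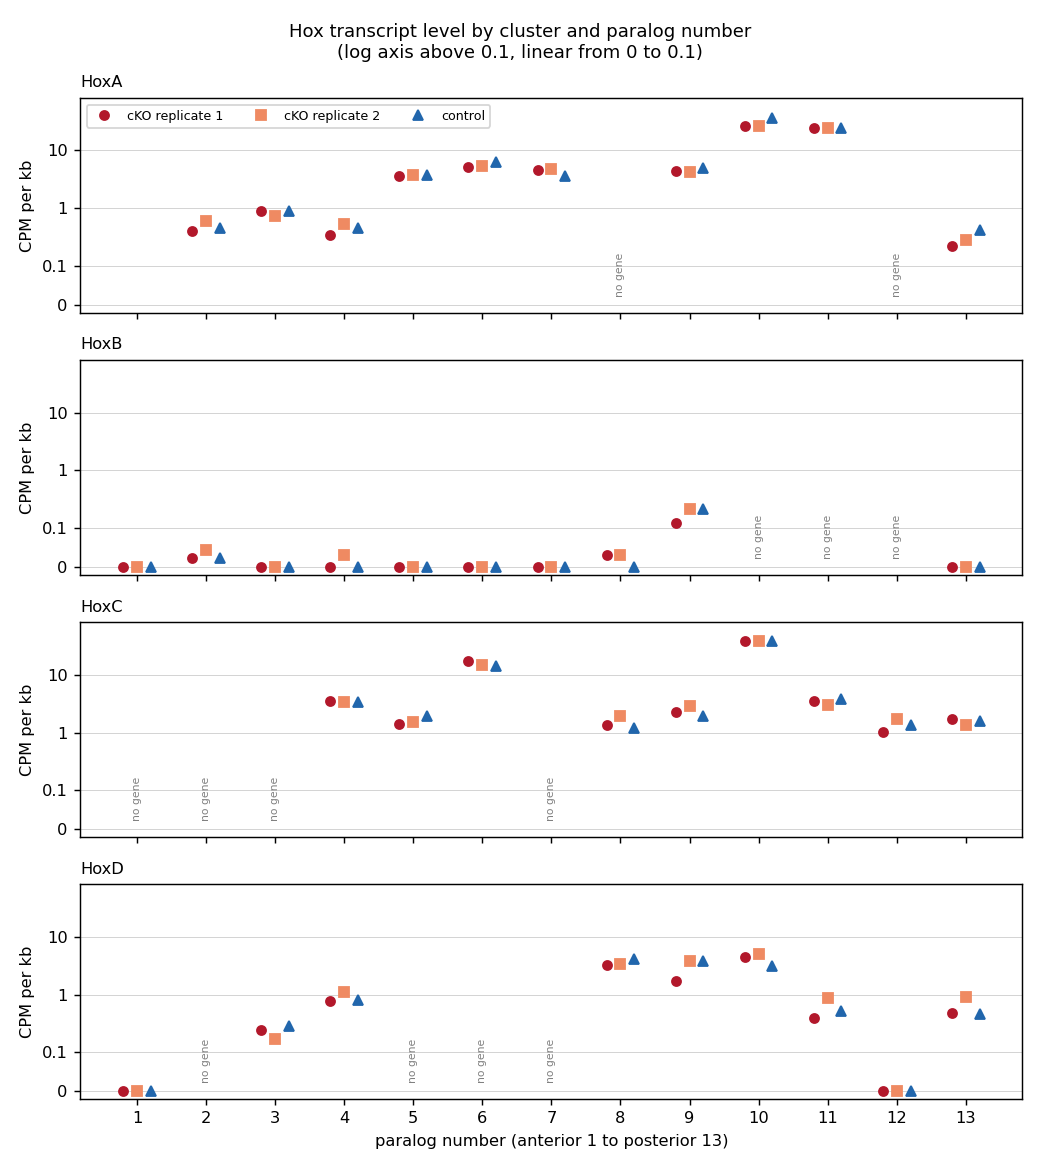
Level of 38 Hox genes in CPM per kb of exon (vertical axis, logarithmic above 0.1 and linear below) against its paralog number (horizontal axis), with 1 panel per cluster and 1 point per library. Hoxa10, Hoxa11, Hoxc6 and Hoxc10 lie above 10 in all 3 libraries, and every HoxB gene lies below 0.3.

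HoxA (chromosome 6, 52155590 to 52260880, minus strand, GRCm38) was transcribed along its whole length, and all 11 of its genes had counts in every library. Hoxa10, which patterns the upper limb segment and the lumbar spine, had 1079 and 1115 counts in the cKO libraries, against 1450 in the control. These are 26.5 and 26.6 CPM per kb in the cKO libraries, against 35.7 in the control, so the cKO libraries lay close together and below the control. Hoxa11, which patterns the middle limb segment, had 688 and 710 counts in the cKO pair and 691 in the control, or 24.2 and 24.3 CPM per kb against 24.4. The groups thus lay side by side at Hoxa11, the direct neighbour of Hoxa10. About 35.0% of the exon bases of Hoxa11 also belong to the antisense gene Hoxa11os, which had 150 and 136 counts in the cKO pair and 152 in the control. The sources used here do not say whether the counting used strand, so reads of this pair may have been divided in either way.

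The level in HoxA dropped on both sides of this pair. Hoxa13, which patterns the paw, had only 7 and 9 counts in the cKO pair and 13 in the control. Hoxa9, the neighbour of Hoxa10 on the other side, had 311 and 308 counts in the cKO pair and 339 in the control, or 4.47 and 4.31 CPM per kb against 4.90. Hoxa7, which acts in the thoracic skeleton, had 167 and 177 counts in the cKO libraries, against 128 in the control. Both cKO libraries were higher than the control for Hoxa7 and lower than it for Hoxa9.

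Hoxa5, which is needed for the neck skeleton and the lung, had 84 and 91 counts in the cKO pair and 89 in the control, and scaled by library size both cKO libraries lay just below the control. The short gene Hoxa6 had 57 and 60 counts in the cKO libraries, against 69 in the control, yet per length it was the fifth of all Hox genes, at 5.24 and 5.36 CPM per kb in the cKO pair and 6.36 in the control. Hoxa3, a gene of the pharyngeal arches, had 67 and 56 counts in the cKO pair and 67 in the control. Hoxa2, a hindbrain gene, and Hoxa4 had between 7 and 14 counts in each library.

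HoxC (chromosome 15, 102921103 to 103036852, plus strand) came close to HoxA in summed level, and its 9 genes also had counts in every library. Hoxc10, which acts in the hind limb and lumbar region, was the highest Hox gene of all, above 94.4% of the 19810 genes of known exon length with a count. It had 894 and 919 counts in the cKO pair and 916 in the control, or 37.6 CPM per kb in each cKO library against 38.7 in the control. Its level in the cKO libraries was thus close to that in the control.

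Hoxc6, a gene of the thoracic region and the forelimb level, was the fourth of all Hox genes, with 520 and 447 counts in the cKO pair and 426 in the control. The cKO libraries lay above the control, but they differed more from each other, at 41.8 and 34.9 CPM, than the lower of them did from the control at 34.3 CPM. Hoxc4 had 111 and 109 counts in the cKO pair and 106 in the control, and the groups overlapped in CPM. Hoxc9 had 69 and 89 counts in the cKO libraries, against 57 in the control, and Hoxc8 had 48 and 69, against 42.

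Hoxc11, of the middle limb segment group, had 88 and 77 counts in the cKO pair and 95 in the control. At 3.50 and 2.98 CPM per kb in the cKO pair and 3.79 in the control, it lay far below its paralog Hoxa11. Hoxc5 had 53 and 60 counts in the cKO pair and 75 in the control, and it shares 166 exon bases with Hoxc10. Hoxc13, which is known from hair and nails, kept a low level, with 53 and 42 counts in the cKO pair and 48 in the control. Hoxc12 had 13 and 23 counts in the cKO pair and 17 in the control, so the groups overlapped for both.

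HoxD (chromosome 2, 74668310 to 74765142, plus strand) was lower, and its highest genes were the adjacent Hoxd8, Hoxd9 and Hoxd10. Hoxd10, a partner of Hoxa10 and Hoxc10 in the hind limb, had 101 and 115 counts in the cKO libraries, against 71 in the control. Hoxd8 had 113 and 119 counts in the cKO libraries, against 140 in the control. Both cKO libraries therefore lay above the control for Hoxd10 and below it for Hoxd8.

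Hoxd9 had 46 and 103 counts in the cKO pair and 100 in the control, so cKO replicate 1 stood apart from the other pair of libraries. Hoxd11, which patterns the forearm and lower leg together with Hoxa11, had 21 and 48 counts in the cKO pair and 27 in the control. Hoxd13, a digit gene, had 15 and 29 counts in the cKO pair and 14 in the control. Hoxd4 and Hoxd3, whose exons overlap, had 28 and 41 counts and 13 and 9 counts in the cKO pair, and 30 and 15 in the control. Hoxd1 and Hoxd12 had no count in any library, which allows each a level of up to 0.241, 0.234 and 0.242 CPM in cKO replicate 1, cKO replicate 2 and the control, counting error only.

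HoxB (chromosome 11, 96194316 to 96368256, plus strand) was nearly without transcripts in every library. Its 10 genes together had 6 and 11 counts in the cKO pair and 8 in the control. Hoxb9, a thoracic gene, held most of them, with 4 and 7 counts in the cKO pair and 7 in the control. Hoxb1, Hoxb3, Hoxb5, Hoxb6, Hoxb7 and Hoxb13 had no count at all, with the same upper limits as for Hoxd1. Hoxb2, Hoxb4 and Hoxb8 had between 0 and 2 counts per library. Hoxb13, a gene of the tail bud and prostate, lies apart from the others in this cluster.

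Read by paralog number across clusters, the Hox sum peaked at group 10. Group 10 held 44.7% and 44.3% of the summed level in the cKO pair and 47.3% in the control, and group 11 held 18.3% and 18.0% against 17.5%. Group 9 held 5.61% and 7.14% in the cKO pair and 6.58% in the control. The groups used in the paw and tail were low, with 2.25% and 2.73% for groups 12 and 13 in the cKO pair and 2.31% in the control. Groups 1 to 3 held 2.12% and 2.08% in the cKO pair and 1.93% in the control. Groups 4 to 8 held 27.05% and 25.8% in the cKO pair and 24.4% in the control, and within them group 6, with Hoxc6 and Hoxa6, held 14.7% and 12.7% against 12.6%.

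**Figure D2:**
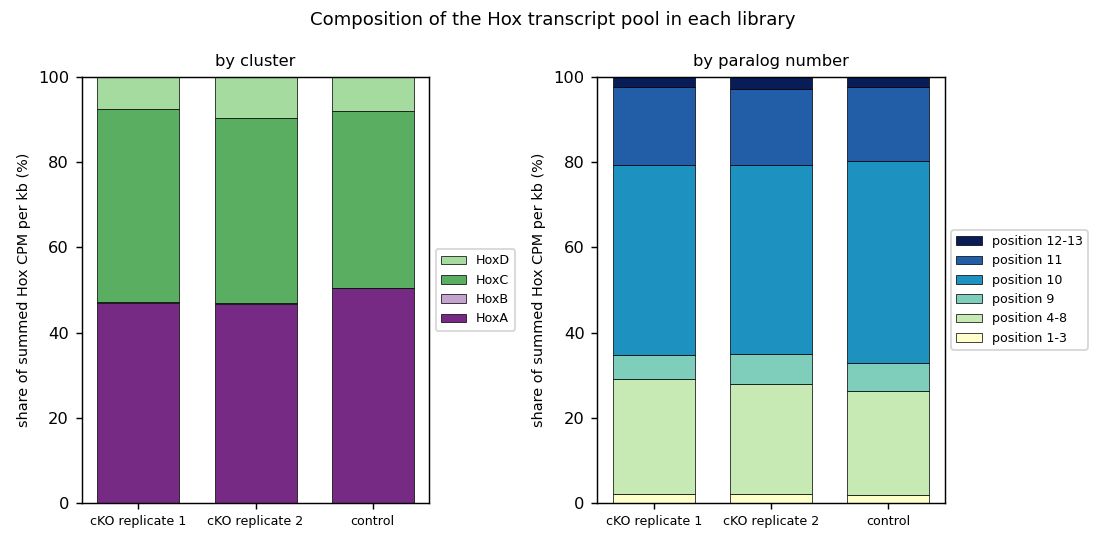
Share of each cluster (left) and of each span of paralog numbers (right) in the summed Hox level of each library, in percent of CPM per kb. HoxA and HoxC fill most of each bar, the HoxB part of at most 0.203% is too thin to see, and position 10 is the widest band in each of the 3 bars.

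For the comparison of cKO with control, 27 Hox genes had enough counts to be tested, namely the 11 of HoxA, the 9 of HoxC and 7 of HoxD. None of the 27 passed an adjusted p of 0.05 in edgeR's quasi-likelihood test, against 5.13% of the 15529 genes tested. By direction, 0 rose, against 3.12% of all genes, and 0 fell, against 2.01%. In DESeq2 and in limma-voom the number was also 0, against 2.11% and 5.32% of genes. At an unadjusted p under 0.05, 1 Hox gene passed in edgeR, against 15.5% of genes. The log2 fold change was above 0 for 12 and below 0 for 15, with a median of -0.03, against -0.002 over all genes tested. Both cKO libraries lay on one side of the control for 20 of the 27 genes, that is 74.1%, against a background of 74%.

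Hoxa10 was the gene with the unadjusted p under 0.05. It differed by -0.43 ± 0.13 (SE) on the log2 scale, a fold of 0.743 with a 95% interval of 0.617 to 0.896, and its adjusted p was 0.0589 in edgeR, so it did not pass. Taken alone, cKO replicate 1 differed from the control by -0.43 and cKO replicate 2 by -0.42 on the log2 scale. The adjusted p was 0.686 in DESeq2 and 0.0861 in limma-voom, and between 0.0764 and 0.686 over all 7 alternatives with a test. The HoxA sum followed this gene, at 0.880 times the control in cKO cells, which on the log2 scale is -0.18, and -0.02 without Hoxa10.

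Hoxa11 and Hoxc10, also abundant, had narrow intervals that included no difference. With 1 residual and 22.6 prior degrees of freedom, the widths rest mostly on the spread estimated over all genes. The fold of Hoxa11 was 0.994 (95% interval 0.814 to 1.21, adjusted p = 0.990 in edgeR) and that of Hoxc10 was 0.972 (0.804 to 1.18, adjusted p = 0.939 in edgeR), so differences beyond these bounds lie outside the 95% intervals. Among genes with values above the control, Hoxd10 had the smallest p, at 0.58 ± 0.29 (SE) on the log2 scale (adjusted p = 0.344 in edgeR). Hoxa7 followed at 0.40 ± 0.24 (adjusted p = 0.459 in edgeR). For 14 of the 27 genes the 95% interval lay within a 2-fold change in either direction, and for the other 13 a 2-fold difference was within the interval. The widest intervals belonged to Hoxa13, Hoxa4, Hoxa2 and Hoxd3, which had at most 15 counts in a library.

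**Figure D3:**
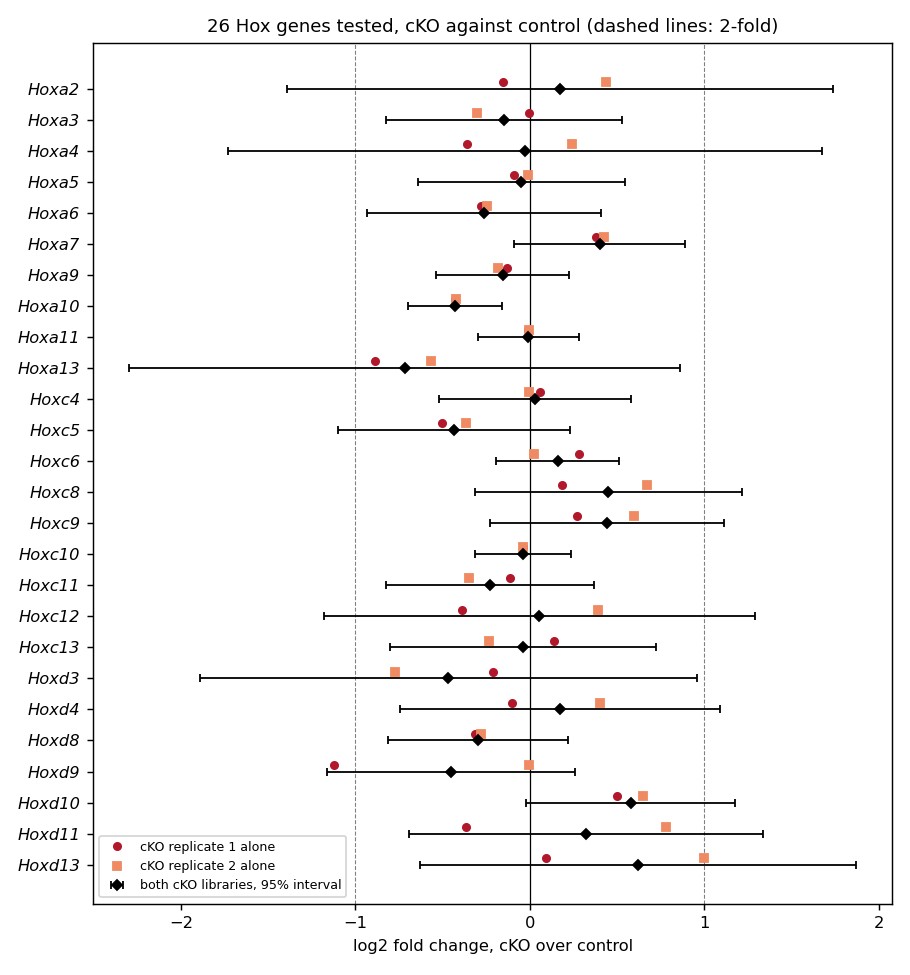
Log2 fold change of cKO over control (horizontal axis) for 26 of the 27 Hox genes tested, with 95% intervals from edgeR (black) and the value of each cKO library alone (coloured). The interval of Hoxa10 lies below 0, between -0.70 and -0.16, and those of the other 25 genes plotted include 0.

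The cKO libraries also differed from each other at some Hox genes. Over the 14 Hox genes at a mean of at least 5 CPM, the log2 difference between cKO replicates 2 and 1 had an SD of 0.337, and the differences of cKO replicates 1 and 2 from the control had SDs of 0.393 and 0.329. Over the 11339 genes at that level the SDs were 0.331 within the cKO pair, and 0.569 and 0.562 to the control. Among the 27 tested Hox genes, 20 were higher in cKO replicate 2 than in cKO replicate 1 (74.1%), against 7762 of all 15529 genes tested, with 9 of the 11 in HoxA, 5 of the 9 in HoxC and 6 of the 7 in HoxD. The ratio of cKO replicate 2 to cKO replicate 1 was 2.18 for Hoxd9 (95% exact binomial interval 1.53 to 3.16) and 2.22 for Hoxd11 (1.31 to 3.91). It was 1.88 for Hoxd13 (0.976 to 3.78), so that interval included 1.

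The HoxD cluster as a whole had 337 and 464 counts in the cKO pair and 397 in the control, so the control lay between them. The ratio of cKO replicate 2 to cKO replicate 1 was 1.34 for HoxD (1.16 to 1.55), against 1.00 for HoxA (0.949 to 1.06) and 0.966 for HoxC (0.905 to 1.03). These intervals cover counting error only and compare 2 libraries. Hoxd9 illustrates how this enters the comparison with the control: its log2 difference was -1.12 in cKO replicate 1 and -0.0023 in cKO replicate 2, and -0.45 ± 0.34 (SE) together. Of the 27 tested Hox genes, 3 had a counting interval between the cKO libraries that did not include 1 (11.1%), namely Hoxd9, Hoxd11 and Hoxc6, against 29.5% of all genes tested. Between the cKO pair and the control, 5 of the 27 had such an interval (18.5%), against 41.6% of all genes tested, namely Hoxa7, Hoxa10, Hoxd9, Hoxd10 and, with a lower bound at 1 after rounding, Hoxc9.

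**Figure D4:**
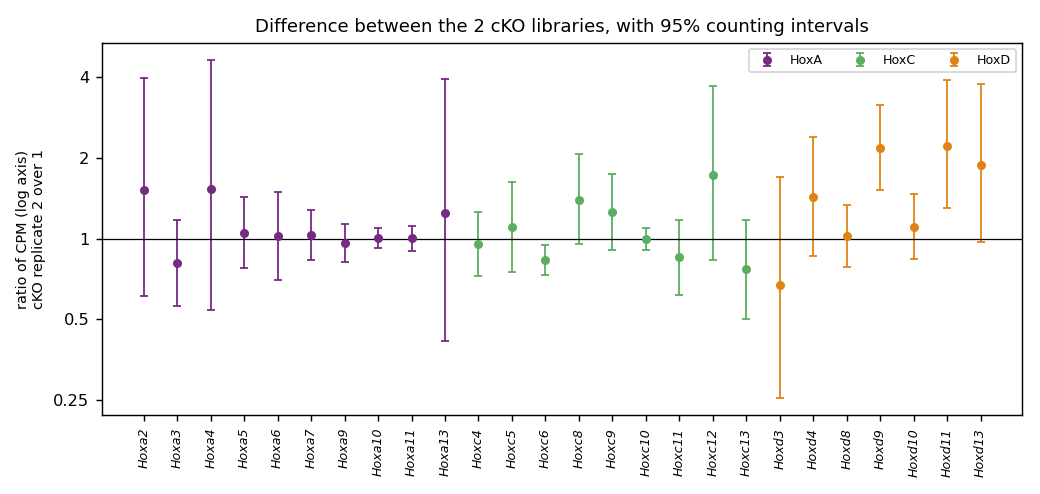
Ratio of CPM in cKO replicate 2 over cKO replicate 1 (vertical axis, logarithmic) for 26 of the 27 tested Hox genes, coloured by cluster, with 95% exact binomial intervals that cover counting error only. Hoxa10, Hoxa11 and Hoxc10 lie at 1.01, 1.00 and 1.00, and Hoxd9 and Hoxd11 lie above 2.

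The limb patterning genes beside Hox included the hind limb genes at higher levels than their forelimb relative in every library. Pitx1, the homeobox gene that specifies the hind limb, had 1589 and 1857 counts in the cKO pair and 1319 in the control, or 48.0 and 54.6 CPM per kb against 40.03. Tbx4, the T-box gene of the hind limb, had 455 and 389 counts in the cKO pair and 442 in the control, or 10.7 and 8.94 CPM per kb against 10.5. Tbx5, its forelimb relative, was lower but not absent, with 114 and 118 counts in the cKO pair and 96 in the control, or 1.96 and 1.97 CPM per kb against 1.66. Shox2, a gene of the upper limb segment, lay at 14.9 and 14.7 CPM per kb in the cKO pair and 15.7 in the control. Shh, the signal of the embryonic limb's posterior margin, had no count in any library.

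Of 36 tested genes for limb and skeletal position, 2 rose (5.56%, against 3.12% of all genes tested), 0 fell (against 2.01%) and 34 did not pass, and the median log2 fold change of the list was 0.005, against -0.002 over all genes tested. Pax9, a paired-box gene of the axial skeleton and digits, had 107 and 65 counts in the cKO libraries, against 24 in the control. It rose by 1.81 ± 0.40 on the log2 scale (SE, adjusted p = 0.0061 in edgeR), and both cKO libraries were above the control. Its close relative Pax1 had 10 and 8 counts in the cKO libraries, against 28 in the control, a log2 difference of -1.65 ± 0.60 that did not pass (adjusted p = 0.139 in edgeR). Hand2, which sets posterior identity in the limb bud upstream of Shh, had 80 and 77 counts in the cKO libraries, against 32 in the control. It rose by 1.27 ± 0.36 on the log2 scale (SE, adjusted p = 0.0380 in edgeR).

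Neither call held in DESeq2, with adjusted p values of 0.193 for Pax9 and 0.704 for Hand2, and in limma-voom Pax9 passed (0.0270) while Hand2 did not (0.0702). Over the 7 alternatives with a test the adjusted p lay between 0.0118 and 0.527 for Pax9 and between 0.0462 and 0.704 for Hand2. The 4 list members with the smallest p at a mean of at least 5 CPM also held Pitx1 and Meis2, which marks the upper limb segment. Pitx1 differed by 0.36 ± 0.14 on the log2 scale (SE, adjusted p = 0.194 in edgeR) and Meis2 by 0.43 ± 0.19 (adjusted p = 0.242 in edgeR). Tbx5 and Tbx4 differed by 0.25 ± 0.27 and -0.09 ± 0.17 on the log2 scale and did not pass. Tbx15, a gene of the limb and shoulder skeleton, was the highest patterning gene plotted, at 78.7 and 68.1 CPM per kb in the cKO pair and 76.2 in the control.

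**Figure D5:**
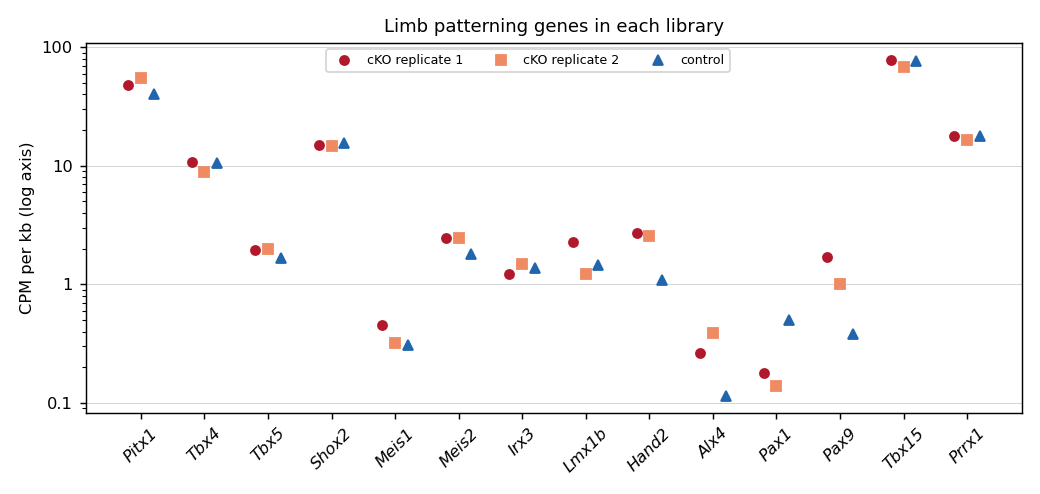
Level in CPM per kb of exon (vertical axis, logarithmic) of 14 limb and skeletal patterning genes in each library. Hand2 and Pax9 lie higher in both cKO libraries than in the control, Pax1 lies lower, and Pitx1 lies above Tbx4 and Tbx4 above Tbx5 in all 3 libraries.

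Hox proteins bind DNA together with homeodomain partners of the Pbx, Meis and Pknox families. Of 13 tested genes for such partners and other Hox-binding proteins, 1 rose (7.69%, against 3.12% of all genes tested) and 12 did not pass, with a median of 0.19 on the log2 scale, against -0.002 over all genes tested. The one that rose was Btg2, an antiproliferative protein, at 638 and 694 counts in the cKO pair and 445 in the control (log2 0.56 ± 0.15 SE, adjusted p = 0.0314 in edgeR). Its adjusted p was 0.522 in DESeq2, and 0.0377 in limma-voom, the highest and lowest of the 7 alternatives with a test. Pbx3, a Pbx partner, had 218 and 204 counts in the cKO pair and 252 in the control, a log2 difference of -0.28 ± 0.20 (adjusted p = 0.584 in edgeR).

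Polycomb complexes silence Hox genes and Trithorax complexes keep them active. Of 44 tested genes of these complexes, 0 passed in edgeR or DESeq2, against 5.13% and 2.11% of all genes tested, and 4 had an unadjusted p under 0.05 in edgeR (9.09%, against 15.5%). Their median was 0.02 on the log2 scale. In limma-voom 1 of the 44 passed, against 5.32% of all genes tested. This was the Y-linked demethylase relative Uty, named here after its values were seen. It had 219 and 0 counts in the cKO pair and 201 in the control. Uty is among the Y-linked genes without a count in cKO replicate 2, the library with 10081 Xist counts. Beside Kdm6b the smallest p values were those of Phf19 and Pcgf5, partners in the Polycomb complexes 2 and 1, at 0.59 ± 0.23 and 0.58 ± 0.23 on the log2 scale, and of Ring1, a ubiquitin ligase of complex 1, at -0.41 ± 0.18 (SE, adjusted p = 0.185, 0.190 and 0.254 in edgeR). Kdm6a, the X-linked relative of Kdm6b, had 312 and 489 counts in the cKO pair and 381 in the control, so the control lay between the cKO libraries.

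Of 28 noncoding transcripts listed for the clusters, 15 had a row in the table and the other 13 were not analysed here. Of the 15, 7 had no count in any library and 1, Hoxa11os, had enough counts to be tested, with a log2 difference of -0.11 ± 0.24 (SE, adjusted p = 0.894 in edgeR). Hotair, the antisense RNA between Hoxc11 and Hoxc12, had 4 and 2 counts in the cKO pair and 3 in the control. The Evx genes, homeobox genes at the posterior ends of HoxA and HoxD, were nearly silent, with 0 and 1 counts of Evx1 in the cKO pair and 0 in the control, and no count of Evx2. Of 22 tested genes flanking the clusters, 0 passed with any of edgeR, DESeq2 and limma-voom, against 5.13%, 2.11% and 5.32% of all genes tested. The unadjusted p in edgeR was under 0.05 for 1 of them (4.55%, against 15.5%), and the median was -0.02 on the log2 scale. That gene, Jazf1 on the far side of HoxA, had 77 and 89 counts in the cKO pair and 124 in the control (log2 -0.60 ± 0.27 SE, adjusted p = 0.271 in edgeR). Atp5g1 near HoxB, Ube2z near HoxB and Copz1 near HoxC had log2 differences of -0.55, 0.23 and -0.16.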

How the data were processed

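RNA was extracted with Trizol, depleted of ribosomal RNA when its integrity number was above 8, and made into Ion Proton libraries, per the labels' protocols. The authors deposited raw read counts for each gene symbol, as whole numbers. Per the submitters' processing notes the builds GRCm38 and GRCh37 were used, with no role stated, and no aligner, counter or strand setting is stated. Each of the 3 columns was matched to its sample by title.

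Counts of all 44788 symbols were filtered with filterByExpr, which left 15529, and tested in edgeR 4.0.16 (R 4.3.3) by quasi-likelihood after TMM scaling, with p-values adjusted by Benjamini-Hochberg and a threshold of 0.05. The 1 residual degree of freedom comes from the cKO pair, the variance of the single control is taken to be the same, and the prior degrees of freedom were 22.6. The labels do not say how the cKO libraries were replicated. Their Xist and Y-linked counts show that they did not come from the same animal, and p-values reflect the spread between these 2 libraries. SE is the log2 fold change over the root of the F statistic, and intervals are 95%, from the same fit. The script was tested on simulated data. CPM uses TMM-scaled totals. Exon lengths and positions are from GENCODE M21 on GRCm38, in which 30936 symbols and all 39 Hox genes matched 1 gene. Limits for genes without a count are 3 counts per library. DESeq2 1.42.0 and limma 3.58.1 (voom) were alternatives, beside other scaling, filters, lengths and prior degrees of freedom. Hox genes at a mean of at least 5 CPM and, per list, members past the threshold and up to 4 of smallest p are named. Pax1, Shox2, Tbx15, Shh, Hotair, Evx1 and Evx2 were added after their values were seen. Values of 1 Hox gene and 1 partner gene are not reported here, though both are in the sums and counts. The genes and lists were chosen with earlier results of these data known.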

Additional observations from a re-analysis of the deposited data

How the results depend on the processing

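The number of Hox genes called stayed at 0 under each of the 7 alternatives with a test, and the smallest adjusted p of a Hox gene in them was 0.0764, for Hoxa10 with median-of-ratios size factors. The number of genes called over all genes was 796, and it was 257 with column totals only, 127 with no filter beyond 1 count, 310 in DESeq2, 190 with 5 prior degrees of freedom and 81 with 3, and the cause was not tested. Of the 3 limb and partner genes called, 0 were called with no filter and 0 in DESeq2. Of the 44 Polycomb and Trithorax genes 1 was called in limma-voom, the Y-linked Uty, against 5.32% of all genes tested. Pax9, Hand2 and Btg2 also missed the threshold with column totals only and with either fixed prior (adjusted p between 0.150 and 0.527). Hoxa11 had a log2 value of 0.0031 with column totals only. The median of the tested Hox genes lay between -0.10 and -0.0047 without 1 or the other cKO library. The log2 ratio of the HoxA sum was -0.21 without length scaling, and without the highest member it was -0.022 for HoxA, 1.78 for HoxB, where few counts remain, and 0.086 for HoxC. With the longest transcript as length the mean shares over the libraries were 49.5% for HoxA, and 2.44%, 28.5%, 43.8% and 15.6% for groups 1 to 3, 4 to 8, 10 and 11. Without length scaling they were 54.5% for HoxA and 37.2% for HoxC, and 2.73%, 23.7%, 9.77%, 16.6% and 1.92% for groups 1 to 3, 4 to 8, 9, 11 and 12 to 13. Without Hoxc10 they were 63.3%, 25.5% and 11.03% for HoxA, HoxC and HoxD, and 2.69%, 33.9%, 8.48%, 28.1%, 23.6% and 3.20% for groups 1 to 3, 4 to 8, 9, 10, 11 and 12 to 13. Leaving out 1 cKO library gave shares of 48.5% to 48.7% for HoxA, 2.01% to 2.03% for groups 1 to 3 and 45.8% to 46.0% for group 10. No paired analysis was possible because the control group has 1 library. A comparison of 1 library with 1 has no spread, so leaving out a cKO library gives values with no test.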
